A study of Mus musculus with 2 samples.

Results

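The genes described here encode the mouse receptors for the Fc part of antibodies: the IgG receptors Fcgr1, Fcgr3, Fcgr4 and Fcgr2b, the common gamma chain Fcer1g, the neonatal receptor Fcgrt and the cytosolic antibody receptor Trim21. They were taken by name after Ensembl gene identifiers had been matched to mm10 gene symbols, and they are 7 of the 52550 genes in the count tables. All 7 were measured, which here means a mean of at least 1 count per 1000000 (CPM) over both libraries, as 11673 genes of the series were. The RNA came from RAW264.7, a macrophage line established from a mouse tumour induced by Abelson murine leukaemia virus, which makes it a transformed line and not a primary macrophage. The cells were untreated and were kept in 3D culture (1 library) or in 2D culture (1 library). The comparison asks how mRNA levels differ with the culture method. How the 3D culture was set up is not stated in the sources used here.

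Fc receptors let a macrophage read the antibodies that coat a microbe, a cell or an immune complex. In the mouse the activating receptors FcγRI, FcγRIII and FcγRIV bind IgG outside the cell but signal through a separate subunit, the common gamma chain, which also carries them to the surface. The gamma chain holds an immunoreceptor tyrosine-based activation motif (ITAM), whose tyrosines are phosphorylated by Src family kinases and then bind the kinase Syk, and phagocytosis, oxidant release and cytokine production follow. FcγRIIB binds the same IgG complexes but carries an inhibitory motif (ITIM) in its own tail, which recruits the lipid phosphatase SHIP-1 and dampens the response. The neonatal receptor FcRn, the product of Fcgrt with β2-microglobulin, works inside the cell, where it binds IgG in acidic endosomes and returns it to the surface. TRIM21 is a ubiquitin ligase that binds antibody on particles that have reached the cytosol.

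The signalling motifs set the activating and the inhibitory side apart, so their coding sequences are shown. Both genes lie on the minus strand of chromosome 1 in mm10. The gamma chain motif spans exons 4 and 5 of 5 of transcript Fcer1g-201 (chr1:171230067-171230078 and chr1:171229883-171229927), and the FcγRIIB motif lies in exon 8 of 8 of Fcgr2b-201 (chr1:170961053-170961100), with the first 6 bases printed coming from exon 7 (chr1:170961196-170961201). Capitals mark the tyrosine codons. There are 2 in the activating motif, which lies in codons 65 to 79 of 86, and 1 in the inhibitory motif, which lies in codons 317 to 322 of 340.
Fcer1g: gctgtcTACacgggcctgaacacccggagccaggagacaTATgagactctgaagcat
Fcgr2b: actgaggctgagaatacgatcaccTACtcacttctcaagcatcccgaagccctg

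The 3D library held 16652503 counts and the 2D library 14371084, and at least 1 count was present for 15777 and 18580 genes. A count of 0 allows up to 0.222 CPM in the 3D library and 0.170 CPM in the 2D library after scaling with the trimmed mean of M-values (TMM), the scaling of every CPM and ratio below unless another is named. With 1 library per culture method there is no replicate check and no test: genes that reached 2-fold, up or down, were counted as different in size. The 95% intervals cover counting error only and no spread between cultures, and because amplified reads that carry no molecular barcode are not independent of each other, they can be too narrow. All 12 macrophage markers were measured, with 175957 counts in 3D and 80138 in 2D, of which Lyz2, Laptm5, Cd68 and Csf1r held the largest parts. Of the 12, 6 were at least 2-fold higher and 0 lower, Itgam (ratio 0.731), Aif1 (0.577), Ctss (0.774) and Mpeg1 (0.940) had ratios below 1, and the list's median log2 ratio was 1.01 before and 0.07 after the adjustment described further on. The 8 B cell markers summed to 8 counts in 3D and 7 in 2D, and the 10 markers of NK and T cells to 6 in each. The 10 neutrophil markers summed to 27 counts in 3D and 22 in 2D, and the 6 dendritic cell markers to 10 and 8. Among 8 mast cell markers Hdc had 299 of 299 counts in 3D and 345 of 354 in 2D, while the defining genes Kit, Fcer1a and Ms4a2 had 0 in both. The 10 epithelial and endothelial markers had 764 counts in 3D and 397 in 2D, of which Vwf made up 714 and 357. In bulk RNA, fewer cells that express a gene and less RNA per cell cannot be told apart.

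The transcripts of the activating receptors Fcgr3 and Fcgr4, of the gamma chain and of the neonatal receptor were at least 2-fold more abundant in the 3D library. Those of the high-affinity receptor Fcgr1 and of the inhibitory receptor Fcgr2b were less abundant there by a smaller factor. Thus 4 of the 7 members passed the 2-fold mark upwards, beside 18.7% of all measured genes, and 0 of 7 passed it downwards, beside 20.8%. The members' median log2 ratio was 1.17, and the median over all measured genes was 0.05.

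**Figure D1:**
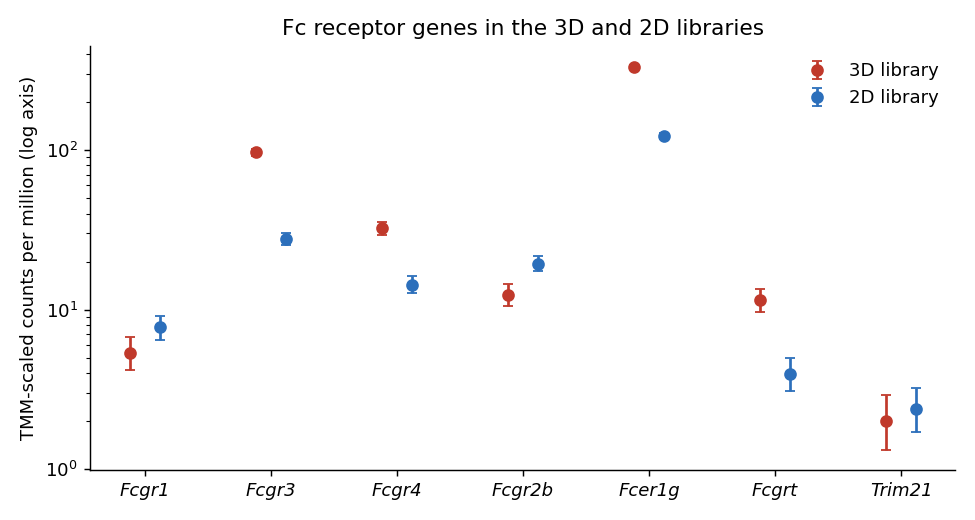
Level of each member in the 3D library (red, left of each pair) and the 2D library (blue), in TMM-scaled counts per 1000000 on a log axis; bars are exact 95% counting intervals and hold no spread between cultures. Fcer1g is the most abundant member in both libraries (330 CPM in 3D, 122 CPM in 2D), and the intervals of the pair overlap for Fcgr1 and Trim21 only.

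Among the activating receptors, Fcgr3 had the widest difference. Fcgr3 (ENSMUSG00000059498, chr1:171051174-171064935, minus strand) encodes the ligand-binding chain of FcγRIII, a low-affinity receptor for IgG complexes. It had 1306 counts in 3D and 491 in 2D, which is 96.5 and 27.8 CPM. The level in the 3D library was 3.48-fold that in the 2D library (95% interval 3.13 to 3.86), and 96.4% of measured genes had a lower ratio.

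Fcgr4 (ENSMUSG00000059089, chr1:171018920-171029761, plus strand) encodes the ligand-binding chain of FcγRIV, which in the mouse binds IgG2a and IgG2b. It had 437 counts in 3D and 254 in 2D, which is 32.3 and 14.4 CPM. Its ratio was 2.25 (1.92 to 2.64), so that the counting interval reaches below 2.

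Fcgr1 (ENSMUSG00000015947, chr3:96282909-96293969, minus strand) encodes the high-affinity receptor FcγRI, which can hold single IgG molecules and is a classical target of interferon gamma. It lies on chromosome 3, away from the cluster on chromosome 1. The 3D library had 72 counts and the 2D library 137, or 5.32 and 7.75 CPM. The level was 1.46-fold lower in 3D (1.09 to 1.96), opposite in direction to the other activating receptors and short of the 2-fold mark.

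Fcgr2b (ENSMUSG00000026656, chr1:170958617-170976547, minus strand) encodes the inhibitory receptor. It had 168 counts in 3D and 343 in 2D, or 12.4 and 19.4 CPM. The level was 1.56-fold lower in 3D (1.30 to 1.89), but this difference did not outlast an adjustment for transcript properties, given further on, which moved its log2 ratio of -0.64 to 0.13.

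Fcer1g (ENSMUSG00000058715, chr1:171229572-171234365, minus strand), the gamma chain whose motif is printed above, had 4461 counts in 3D and 2156 in 2D. This is 330 and 122 CPM, a ratio of 2.70 (2.57 to 2.85). The ratio was 1.79 when libraries were scaled to total counts and 1.08 after adjustment, so neither kept it at 2-fold. By CPM it ranked 619th of the measured genes in 3D and 1449th in 2D. The interval is narrow because the counts are high, and it says nothing of the spread between cultures.

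Fcgrt (ENSMUSG00000003420, chr7:45092990-45103851, minus strand), the neonatal receptor, had 155 counts in 3D and 70 in 2D, or 11.5 and 3.96 CPM, and the ratio was 2.89 (2.17 to 3.89). Trim21 (ENSMUSG00000030966, chr7:102557921-102565486, minus strand), the cytosolic receptor, had 27 counts in 3D and 42 in 2D, or 2.00 and 2.37 CPM. Its ratio of 0.840 had an interval that spans 1 (0.498 to 1.39), so a difference was not detectable at this depth.

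Per kilobase of exon, the order of the levels in the 3D library was Fcer1g at 377 CPM per kb, Fcgr3 at 55.6, Fcgr4 at 25.7, Fcgrt at 5.45, Fcgr2b at 2.14, Fcgr1 at 2.06 and Trim21 at 0.537. In the 2D library it was Fcer1g at 139 CPM per kb, Fcgr3 at 16.0, Fcgr4 at 11.4, Fcgr2b at 3.35, Fcgr1 at 2.99, Fcgrt at 1.88 and Trim21 at 0.639. Fcgrt thus stood above Fcgr2b and Fcgr1 in 3D and below both in 2D. The counting intervals of the neighbours Fcgr2b and Fcgr1 overlap in both libraries, and all other neighbours in the 2 orders have intervals apart. These levels use the joined exons of all annotated transcripts. For Fcgr2b, whose joined exons are 5790 bases and whose longest transcript is 3544 bases, that transcript gives 3.50 CPM per kb in 3D and 5.47 in 2D.

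Ratios of 2 members within a library do not depend on how the libraries are scaled. Together the 4 IgG receptor genes had 1983 counts in 3D and 1225 in 2D. Fcgr3 made up 65.9% of them in 3D (Wilson 95% interval 63.7 to 67.9) and 40.1% in 2D (37.4 to 42.9). The share of Fcgr2b was 8.47% in 3D (7.33 to 9.78) and 28.0% in 2D (25.6 to 30.6). Fcgr1 likewise held a smaller share in the 3D library, 3.63% (2.89 to 4.55), than in the 2D library, 11.2% (9.54 to 13.1). Fcgr4 held shares with overlapping intervals, 22.0% in 3D (20.3 to 23.9) and 20.7% in 2D (18.6 to 23.1). The make-up therefore differed by more of Fcgr3 and less of Fcgr2b and Fcgr1 in the 3D library.

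**Figure D2:**
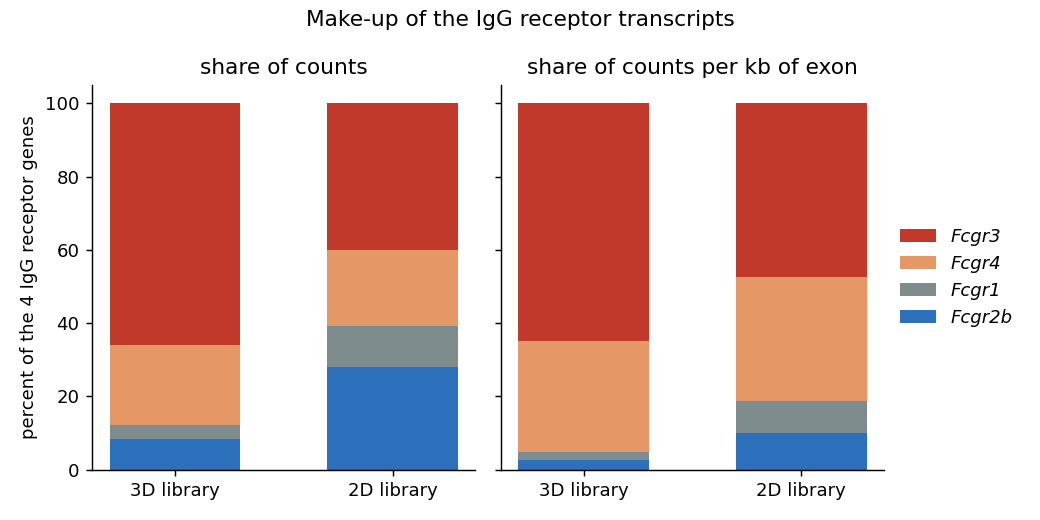
Share of each IgG receptor gene in the counts of all 4 genes (left panel, percent) and in the counts per kilobase of exon (right panel, percent), 3D library left of the 2D library. The share of counts of the inhibitory Fcgr2b (blue) is 8.47% in 3D and 28.0% in 2D, and per kilobase it is 2.51% and 9.92%.

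Set against each other, the 3 activating receptor genes had 10.8 counts for each count of Fcgr2b in 3D and 2.57 in 2D. The odds of Fcgr2b against them in the 3D library were 0.238 times those in the 2D library (exact 95% interval 0.193 to 0.292), a 4.20-fold shift away from the inhibitory gene (3.42 to 5.17). Against Fcgr3 alone the shift was 5.43-fold (4.37 to 6.75), and against Fcgr1 and Fcgr4 together, which leaves out the near copy Fcgr3, it was 2.66-fold (2.11 to 3.36). Against Fcgr4 alone it was 3.51-fold (2.74 to 4.50). For Fcgr1 no such shift was detectable: the ratio of Fcgr1 to Fcgr2b was 0.429 in 3D and 0.399 in 2D, and the ratio between the libraries was 1.07 (0.751 to 1.53). Dividing each receptor's 3D count by the fold that its GC content, exon length and level predict left a 1.88-fold shift against all 3 genes. Against Fcgr1 and Fcgr4 together it left 1.39-fold, so these pooled shifts kept their direction but not their size. Singly, the adjusted shift was 2.27-fold against Fcgr3 and 1.78-fold against Fcgr4. The adjusted ratio of Fcgr1 to Fcgr2b between the libraries was 0.649, which is a shift towards the inhibitory gene.

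The gamma chain had 2.46 counts for each count of the 3 activating receptor genes together in 3D and 2.44 in 2D, and the ratio between the libraries was 1.01 (0.913 to 1.11). That sum hides opposite shifts of the single receptors against Fcer1g, whose ratios between the libraries were 0.254 for Fcgr1 (0.187 to 0.342), 1.29 for Fcgr3 (1.14 to 1.45) and 0.832 for Fcgr4 (0.705 to 0.983). After adjustment the ratio of Fcer1g to the sum was 0.523 between the libraries. The adjusted ratios of the single receptors against Fcer1g were 0.660 for Fcgr1, 2.31 for Fcgr3 and 1.81 for Fcgr4, whose direction turned. Against the other myeloid ITAM adaptor, Tyrobp (DAP12), Fcer1g had 1.02 counts in 3D and 0.857 in 2D for each count of Tyrobp, a ratio of 1.19 (1.10 to 1.27). Against B2m, the light chain of the neonatal receptor, Fcgrt was 1.92-fold higher in the 3D library than in the 2D library (1.44 to 2.60), and 1.68-fold higher after adjustment.

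The size of each difference depends on how the libraries are scaled. Scaling to total counts lowered every log2 ratio by 0.60 and scaling to 22 reference genes lowered it by 0.70, and the median over all genes was then -0.55 and -0.65. Under both, 1 member, Fcgr3, was at least 2-fold higher in 3D culture, with log2 ratios of 1.20 and 1.10. The background was 5.77% of all genes higher under total counts and 4.54% under reference genes. Fcgr1 and Fcgr2b then passed the mark downwards, with log2 ratios of -1.14 and -1.24 under total counts and of -1.24 and -1.34 under reference genes, beside 35.9% and 38.9% of all genes. Fcgr4, Fcer1g and Fcgrt kept positive log2 ratios under both, from 0.47 to 0.93. Relative to the all-gene median, each member's difference is the same under all of these scalings.

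The ratios of all genes also ran with the base composition of their transcripts. With all genes split into 10 equal bins by GC, the median log2 ratio was -1.34 in the lowest bin and 0.96 in the highest. The members lie inside this range, with 45.4% GC for Fcgr2b, 46.2% for Trim21, 48.2% for Fcgr4, 49.2% for Fcgr3, 51.6% for Fcgr1, 51.8% for Fcer1g and 55.9% for Fcgrt. Fcgr3, Fcgr4, Fcer1g and Fcgrt lie above the upper quartile of genes of like GC content and Fcgr1 lies below the lower quartile, while Fcgr2b and Trim21 lie within the quartiles. The part that the way the libraries were made plays in this trend was not tested.

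**Figure D3:**
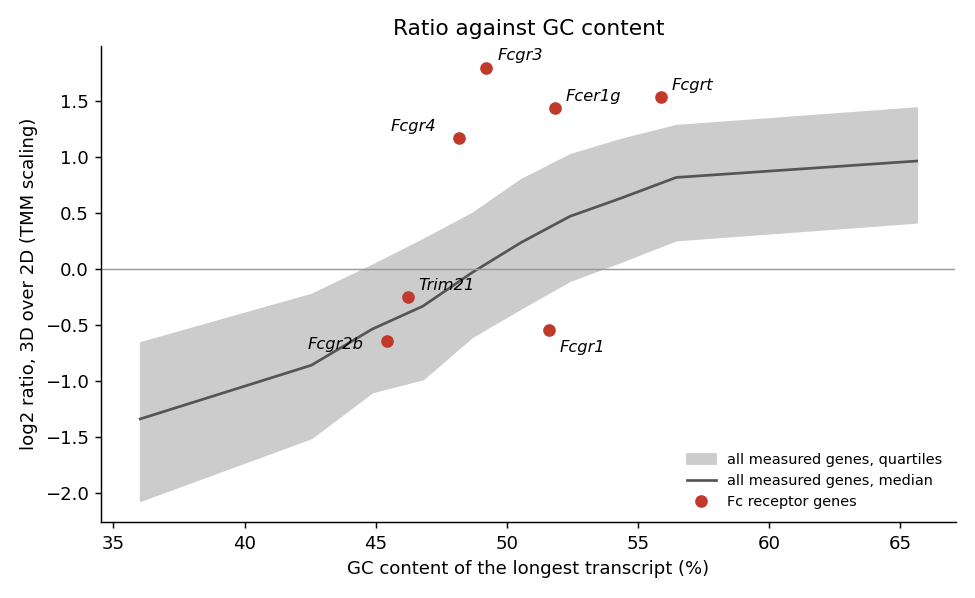
Log2 ratio, 3D over 2D, against the GC content of the longest transcript in percent; the line is the median and the grey band the quartiles of all measured genes in 10 bins, and the red points are the members. Fcgr3 (log2 ratio 1.80), Fcgrt (1.53), Fcer1g (1.44) and Fcgr4 (1.17) lie above the band and Fcgr1 (-0.54) lies below it.

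An adjustment of the log2 ratios for GC content, exon length and mean level, fitted over all measured genes, explained 45.0% of their variance. After it 2 members, Fcgr3 at 1.32 (1.17 to 1.47) and Fcgrt at 1.11 (0.69 to 1.53), were at least 2-fold higher, beside 11.2% of all genes, and 0 were lower, beside 9.22%. Fcgr4 stood just under the mark at 0.97 (0.74 to 1.20). The gamma chain moved the most, to an adjusted log2 ratio of 0.11 (0.04 to 0.18), since genes of its composition, short exon length and high level had a fitted log2 ratio of 1.33. Fcgr1 remained on the lower side at -0.49 (-0.92 to -0.07). Fcgr2b and Trim21 changed sign, to 0.13 (-0.14 to 0.41) and 0.91 (0.15 to 1.64). Such an adjustment also takes away any effect of the culture that follows composition, length or level, and its intervals hold the counting error alone.

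**Figure D4:**
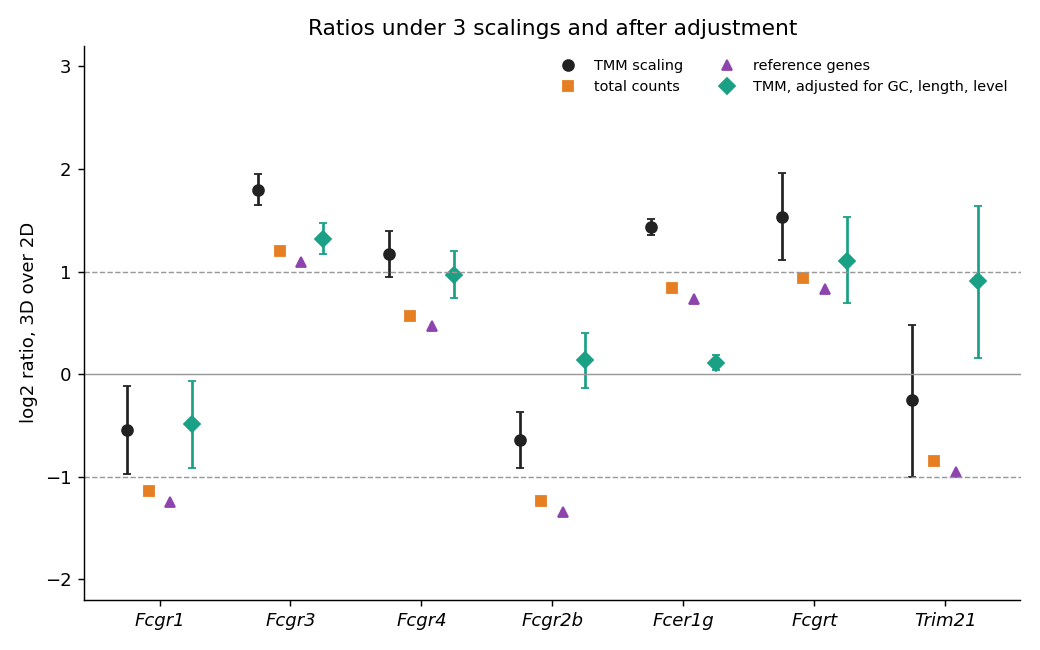
Log2 ratio, 3D over 2D, of each member under TMM scaling (black circles), total counts (orange squares), 22 reference genes (purple triangles) and after adjustment for GC content, exon length and level (green diamonds); bars are 95% counting intervals and dashed lines mark 2-fold. Fcgr3 lies above the upper line under all 4, and Fcgr2b and Trim21 change sign on adjustment.

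Fcgr3 and Fcgr2b are near copies in the part that binds IgG, which bears on how reads can be assigned. Their coding sequences were identical at 86.5% of 785 aligned bases, while the other pairs among the 4 IgG receptor genes were identical at 60.6% to 66.3%. The longest run without a difference was 129 bases, in exons 3 and 4 of Fcgr3-201 (chr1:171057691-171057792 and chr1:171054167-171054193, minus strand) and of Fcgr2b-201 (chr1:170967980-170968081 and chr1:170966674-170966700, minus strand). A read that falls inside it could have come from either gene. It is printed here because it sets that limit.
Fcgr3 and Fcgr2b: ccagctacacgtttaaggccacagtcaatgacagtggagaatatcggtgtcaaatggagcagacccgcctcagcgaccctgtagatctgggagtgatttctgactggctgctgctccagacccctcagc

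The 90 bases just before this run, chr1:171057793-171057882 in Fcgr3 and chr1:170968082-170968171 in Fcgr2b, differ at 7 positions, marked in capitals, and show what a read must cover to be told apart.
Fcgr3: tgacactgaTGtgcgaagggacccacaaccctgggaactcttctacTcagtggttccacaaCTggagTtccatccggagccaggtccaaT
Fcgr2b: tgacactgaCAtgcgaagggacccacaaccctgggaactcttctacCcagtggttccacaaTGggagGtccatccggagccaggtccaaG

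Over the longest transcript of Fcgr3, 12.8% of all stretches of 50 bases and 3.53% of all stretches of 100 bases occurred letter for letter in another gene, which was Fcgr2b in each case. For Fcgr2b the values were 12.5% and 6.79%, and 4.75% and 1.28% counting only the stretches shared with Fcgr3. Fcgr1, Fcgr4, Fcer1g and Fcgrt had no shared stretch at 50 bases, and Trim21 had 0.292%. How the authors' counting treated reads that match several places is not stated in the sources used here, so the split between Fcgr3 and Fcgr2b is less certain than the other members' counts. The odds of Fcgr2b against Fcgr1 and Fcgr4, which share no such stretch with it, leave out the counts of Fcgr3, but those of Fcgr2b itself could still hold reads of the shared run.

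The promoter windows of all 7 members were searched for 3 motifs. Matches were found for the 3 activating receptor genes, which are shown, and none for Fcgr2b, Fcer1g, Fcgrt or Trim21, which says only that these letters are not in those windows. Sequences are from RefSeq on GRCm38.p6 and cover 120 bases that end just before the annotated start: chr3:96293970-96294089 (minus strand) for Fcgr1, chr1:171059404-171059523 (minus strand) for Fcgr3 and chr1:171018806-171018925 (plus strand) for Fcgr4. The Fcgr3 window lies inside the wider span of the gene in the GENCODE annotation. Capitals mark matches to GAGGAA, a core of the kind bound by PU.1 and other ETS factors, here on the opposite strand, to TTCNNNGAA, the letters of a gamma-interferon activation site, or to the core of an interferon response element (GAAA, any 2 bases, GAAA).
Fcgr1: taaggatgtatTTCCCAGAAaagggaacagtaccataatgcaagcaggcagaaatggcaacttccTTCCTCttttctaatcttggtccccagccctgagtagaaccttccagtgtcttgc
Fcgr3: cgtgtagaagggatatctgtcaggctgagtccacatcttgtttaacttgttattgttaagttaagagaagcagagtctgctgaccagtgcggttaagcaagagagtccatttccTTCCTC
Fcgr4: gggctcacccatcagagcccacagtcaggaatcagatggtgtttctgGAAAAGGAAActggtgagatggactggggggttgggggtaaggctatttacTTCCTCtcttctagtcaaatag

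The letters GAGGAA occurred in all 3 windows, and among 32851 promoter windows in all, 23.3% held them on either strand in the 250 bases before the start. The letters TTCNNNGAA were matched in Fcgr1 and in 7.02% of all windows, and the interferon response core in Fcgr4 and in 2.98%. The match is to letters only and does not show binding. Spi1, which encodes PU.1, had 5865 counts in 3D and 2305 in 2D, a ratio of 3.33 (3.17 to 3.49) and an adjusted log2 ratio of 0.25.

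The genes that act with the members are given next from lists of known partners, by how many passed the 2-fold mark in the 3D library against the 2D library. Counts under TMM scaling can be read against 18.7% of measured genes higher and 20.8% lower. Those after adjustment can be read against 11.2% higher and 9.22% lower, and those under total counts against 5.77% and 35.9%. Of 12 other Fc receptor genes, 1 was measured. This was Fcrl1, an Fc receptor-like gene known from B cells, with 1321 counts in 3D and 735 in 2D, a ratio of 2.35 (2.14 to 2.57) and an adjusted log2 ratio of 1.56. The B cell markers Ms4a1 and Pax5 had 0 counts in both libraries. Neither the IgE receptor chains Fcer1a and Ms4a2 nor the IgM and IgA receptor genes Fcmr and Fcamr had a count in either library.

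Of 6 signalling adaptors and chains of immune receptors, 2 were measured and both were higher, though neither was 2-fold different after adjustment. Tyrobp, which serves many activating receptors of myeloid cells, had 4390 counts in 3D and 2517 in 2D, a ratio of 2.28 (2.17 to 2.39) with an adjusted log2 ratio of -0.49, so its direction turned. Hcst (DAP10), an adaptor that carries a PI3 kinase docking motif and no ITAM, had a ratio of 2.47 (1.95 to 3.14). Among receptors that pair with the gamma chain or share its signalling, 9 of 16 were measured, 3 were higher and 1 was lower. The integrin chain Itgb2 was 2.66-fold higher (2.56 to 2.77), the C-type lectin Clec4d 2.60-fold higher (2.42 to 2.80) and Cd300c2 2.55-fold higher (2.06 to 3.16). Cd300lf, a receptor of the CD300 family, was 2.60-fold lower (2.16 to 3.13). Clec4d and Cd300c2 stayed at least 2-fold higher and Cd300lf at least 2-fold lower after adjustment.

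Of the kinases, phosphatases and their regulators that act close to the receptors, 12 of 15 were measured, 4 were higher and 2 lower, with a median log2 ratio of -0.20. Syk, the kinase that docks on the ITAM, had 5561 counts in 3D and 3254 in 2D, a ratio of 2.23 (2.14 to 2.33). Lyn, the Src family kinase that phosphorylates ITAM and ITIM tyrosines, had 151 CPM in 3D and 153 CPM in 2D, a ratio of 0.989 (0.934 to 1.05). Src was 2.45-fold higher (2.27 to 2.65) and the negative regulator Csk 2.38-fold higher (2.23 to 2.54). Ptprc, the phosphatase CD45, was 2.72-fold lower (2.49 to 2.97), and Pag1, which anchors Csk at the membrane, 2.98-fold lower (2.05 to 4.42). After adjustment 0 of the 12 were 2-fold different in either direction.

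The relay downstream of the activating receptors had all 34 genes measured, with 6 higher, 3 lower and a median log2 ratio of 0.39. The MAP kinase Mapk3 was 3.31-fold higher (3.13 to 3.50), the adaptor Lat 3.18-fold higher (2.88 to 3.51) and the GTPase Rac2 2.40-fold higher (2.34 to 2.47). The PI3 kinase subunit Pik3r1 was 2.77-fold lower (2.39 to 3.21) and the exchange factor Sos1 2.49-fold lower (2.18 to 2.84). All 5 were within 2-fold after adjustment, but 2 other genes of the 34 were then at least 2-fold higher and 2 lower. The inhibitory relay had all 14 genes measured, with 5 higher, 1 lower and a median log2 ratio of 0.81. Inpp5d, which encodes SHIP-1, had 5589 counts in 3D and 3124 in 2D, a ratio of 2.34 (2.24 to 2.44) and an adjusted log2 ratio of 0.45. The phosphatase gene Ptpn6 (SHP-1) had 2492 counts in 3D and 2845 in 2D, a ratio of 1.14 (1.08 to 1.21) and an adjusted log2 ratio of -0.92. The adaptors Dok3 and Dok2, which act with SHIP-1, were 2.46-fold (2.36 to 2.58) and 2.19-fold (1.99 to 2.41) higher, and Rasa1, a Ras inhibitor, was 2.28-fold lower (2.05 to 2.54). After adjustment 1 of the 14 was at least 2-fold higher and 0 lower, with log2 ratios of -0.23 for Dok3, whose direction turned, 0.12 for Dok2 and -0.27 for Rasa1.

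The NADPH oxidase, which makes superoxide when Fc receptors are engaged, had 7 of 8 genes measured, with 3 higher, 0 lower and a median log2 ratio of 0.86. Cyba, the small membrane subunit, was 4.24-fold higher (4.09 to 4.40), and the cytosolic subunit Ncf4 2.34-fold higher (2.20 to 2.49). After adjustment the log2 ratio was 0.10 for Cyba and -0.03 for Ncf4.

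For the neonatal receptor, 13 of 16 genes of its light chain and of the endosomal traffic it uses were measured, with 3 higher, 3 lower and a median log2 ratio of -0.08. B2m had 5975 counts in 3D and 5194 in 2D, a ratio with an interval of 1.45 to 1.56. The recycling genes Rab11b and Rab11fip5 were 2.81-fold (2.58 to 3.08) and 2.67-fold (2.42 to 2.95) higher. Rab11fip2, another effector of Rab11, was 3.97-fold lower (2.90 to 5.53), and the endosomal tether Eea1 was 3.15-fold lower (2.91 to 3.40). After adjustment 2 of the 13 passed the mark upwards and 0 downwards, with log2 ratios of 1.54 for Rab11b, 0.63 for Rab11fip5, -0.50 for Rab11fip2 and -0.81 for Eea1. Liver is a tissue with FcRn, and 11 hepatocyte markers summed to 335 counts in 3D and 22 in 2D, of which Alb made up 232 and 8. Cps1 had 0 counts in both libraries, and the part of such transcripts in the Fcgrt counts was not tested.

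For TRIM21, 23 of 25 partners, substrates and antigens of the same autoimmune group were measured, with 6 higher, 5 lower and a median log2 ratio of 0.14. The autophagy receptor Sqstm1 was 4.88-fold higher (4.75 to 5.01), and the segregase Vcp, which acts after TRIM21 on antibody-bound particles, 2.23-fold higher (2.16 to 2.30). The ubiquitin-conjugating enzymes Ube2w and Ube2n, which build the first and the longer ubiquitin chains on TRIM21, had ratios of 0.590 (0.498 to 0.697) and 1.10 (1.02 to 1.19). Trove2 and Ssb, the Ro60 and La proteins named beside TRIM21 (Ro52) as autoantigens, were 4.12-fold (3.71 to 4.59) and 3.57-fold (3.25 to 3.92) lower. The DNA sensor Cgas was 3.36-fold lower (2.73 to 4.17). After adjustment 2 of the 23, Ssb and Cgas, stayed at least 2-fold lower. Another 2, Ube2d2a at a log2 ratio of 1.56 and Ube2e1 at 1.21, were then at least 2-fold higher. Ube2w had an adjusted log2 ratio of 0.52, so its direction turned.

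Of 20 genes for transcription factors and cytokine signalling that control Fc receptor genes, all were measured, with 6 higher, 4 lower and a median log2 ratio of 0.27. Cebpb was 6.23-fold higher (5.35 to 7.28), Cebpe 3.98-fold (3.33 to 4.77) and Stat6 2.61-fold (2.49 to 2.73). Jak2, which signals for the interferon gamma receptor, was 2.51-fold lower (2.08 to 3.06). After adjustment 3 of the 20 were at least 2-fold higher, among them Cebpb at a log2 ratio of 1.29. None, or 0 of the 20, were at least 2-fold lower, with Jak2 at -0.51. Scaling to total counts or to reference genes moved all of these lists downwards together with the other genes: under total counts 2 of 34 genes of the activating relay were higher and 7 lower, and 0 of 14 of the inhibitory relay were higher and 4 lower.

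**Figure D5:**
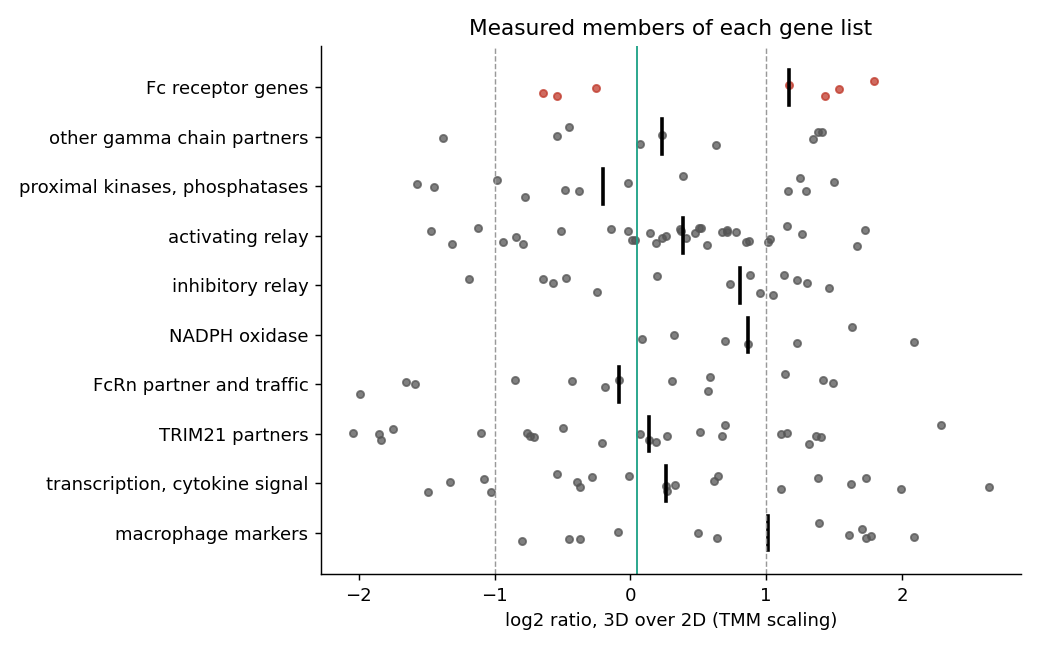
Log2 ratio, 3D over 2D under TMM scaling, of every measured gene of each list (points; members in red), with the list's median (black bar), the median of all measured genes (green line, 0.05) and the 2-fold marks (dashed). The members' median is 1.17, and the medians of the macrophage marker, oxidase and inhibitory relay lists are 1.01, 0.86 and 0.81. Under total counts all points lie 0.60 lower.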

How the data were processed

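The deposited values are read counts per Ensembl gene, made by the authors with Trimmomatic, HISAT2 and HTSeq on mm10, per the submitters' processing notes. Libraries were made with a stranded mRNA kit, per the labels' protocols. Versions, the strand setting used in counting and the handling of multiply matching reads are not stated in the sources used here. Of 52550 identifiers, 52403 matched GENCODE M21 (99.7%), which gave symbols, coordinates, exon lengths and GC content. TMM factors (edgeR 4.0.16, R 4.3.3) were 0.813 (3D) and 1.23 (2D). Ratios are CPM in 3D over 2D with exact 95% counting intervals conditional on the summed counts. A gene with at most 3 counts in both libraries was given no ratio. No test was possible with 1 library per culture method. The adjusted ratio is the residual from natural cubic splines (patsy 1.0.2, 4 degrees of freedom) on GC content, log exon length and log mean level over 11666 genes, recentred on the all-gene median. The code was tested on simulated counts. Genes named from each list were up to 5 past 2-fold, ranked by the interval bound nearest to 1, plus fixed landmarks. Not all genes picked are described, and a few are named to complete a count; some genes are not reported here. Members and lists were chosen with earlier results of these data known. Alternatives were DESeq2 1.42.0 size factors, upper quartile, total counts and reference gene scaling, other filters and fold marks, a pseudocount, thinning, protein-coding genes only and the adjustment. Promoter and transcript sequences come from RefSeq and GENCODE.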

Additional observations from a re-analysis of the deposited data

How the results depend on the processing

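The number of members at least 2-fold higher in 3D culture was 4 under TMM scaling, DESeq2 size factors and upper quartile scaling, 1 under total counts and under reference gene scaling, 0 at a 4-fold mark, and 2 after adjustment for GC content, length and level. The number at least 2-fold lower was 0 in the main setting, 2 under total counts and under reference gene scaling, and 1 at a 1.5-fold mark. The odds of Fcgr2b were 0.238 in the main setting, 0.184 against Fcgr3 alone, 0.376 against Fcgr1 and Fcgr4, and 0.532 after adjustment. Adjustments with the length of the longest transcript, or for GC content alone, were chosen after seeing the data. They gave odds of 0.509 and 0.334 and 3 higher members each. With the longest transcript these were Fcgr3, Fcgr4 and Fcgrt. With GC content alone they were Fcgr3, Fcgr4 and Fcer1g, and Fcgrt stood at a log2 ratio of 0.84. The log2 ratios for Fcer1g were 0.10 and 1.12. The size of its adjusted value thus rests on length and level as well as on GC content. The causes were not tested. Over 97 recomputed ratios of single members, 72 stayed inside the main counting interval and 25 moved beyond it. The 72 include settings that cannot move a ratio, namely the other filters, the other fold marks and protein-coding genes only. They therefore overstate how stable the ratios are. Of 300 recomputed list counts, 205 lay within 1.5 times the main count and 95 did not. No paired analysis was possible because each culture method has 1 library, and for the same reason no replicate could be left out. Depth limits Trim21 the most, with 27 counts in 3D and 42 in 2D.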

Other observations

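Some neighbours of the members on the chromosomes had few counts or none. Beside Fcer1g, the apolipoprotein gene Apoa2 had 2 counts in 3D and 11 in 2D. Rcn3, 769 bases to the left of Fcgrt, had 0 counts in 3D and 1 in 2D. The olfactory receptor genes Olfr549 and Olfr550 that flank Trim21 had 0 counts in both libraries, as had both neighbours of Fcgr1. Genes that overlap a member on the opposite strand had few counts: Gm38204 over Fcgr2b had 0 in 3D and 2 in 2D, and Gm45669 over Fcgrt had 0 in both.

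By distance in log2 CPM over the 2 libraries, the protein-coding gene nearest in level was Mrps24 for Fcgr3, with 1288 counts in 3D and 497 in 2D, Ap5s1 for Fcgr4, Nup43 for Fcgr2b, Tctn1 for Fcgr1 and Prkcsh for Fcer1g. Lrmda had exactly the counts of Fcgrt and Alk exactly those of Trim21. With 2 libraries such likeness is a description of these values only.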
